A study of Mus musculus with 2 samples.

Results

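Osteopontin, the product of Spp1, and 9 genes for its receptors (Cd44, Itgav, Itgb1, Itgb3, Itgb5, Itga4, Itga9, Itga5 and Itgb8) were followed across the cell classes of 2 mouse livers by single-cell RNA sequencing. The members were the 10 genes carrying these symbols among the 32285 genes of the joined count matrix, and all 10 were found. The labels give 1 sample named Cebp KO and 1 named Cebp WT. Both were livers of mice fed for 2 weeks on HFCFD (40% per the labels), a diet high in fat, cholesterol and fructose that is used to bring on steatohepatitis. The knockout mice carried Cebpa fl/fl alleles and a Cre driven by the albumin promoter, which deletes Cebpa in hepatocytes, and their controls carried the floxed alleles. The strain was backcrossed to C57BL/6N, and the study used male mice. Cebpa encodes C/EBPα, a transcription factor of the mature hepatocyte.

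The matrix held the 2 libraries under barcodes ending in the suffix 1 or 2, and no label ties a suffix to a genotype. Values are therefore given for the library with suffix 1 and the library with suffix 2, and neither was assigned a genotype from its order or from any level. With 1 library of each kind and no replicates, no test was possible. Levels are unique molecular identifiers (UMIs, single counted transcripts) per 1000000 UMIs of a class (CPM), with exact Poisson 95% intervals, and shares of cells carry exact binomial 95% intervals. These intervals hold the error of counting and say nothing of how animals or digestions differ.

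Osteopontin is a secreted phosphoglycoprotein of bone, bile duct epithelium, activated macrophages and injured tissue. Its Arg-Gly-Asp motif is bound by the αv integrins (αvβ1, αvβ3, αvβ5, αvβ8) and by α5β1, while the adjacent stretch, uncovered when thrombin cuts the protein, is bound by α4β1 and α9β1. CD44, the hyaluronan receptor, has been described as a further receptor. An integrin reaches the cell surface only as a pair of an α and a β subunit, so the level of 1 subunit alone does not give the level of a receptor.

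The coding sequence of that receptor-binding region is shown because each integrin followed here binds osteopontin there. Spp1 lies at chr5:104435118-104441050 on the plus strand of GRCm38 (GENCODE release M21). The stretch is at chr5:104439466-104439525, given as exon 5 of 6, although the annotated transcripts have from 4 to 8 exons. The Arg-Gly-Asp codons were in frame in 6 of its 7 annotated transcripts. The first 9 capital bases are those codons and the next 21 are the adjacent stretch of textbook descriptions.
Spp1 coding strand: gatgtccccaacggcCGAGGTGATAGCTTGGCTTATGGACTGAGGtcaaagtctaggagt

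The receptor genes lie apart in the same annotation, at chr2:102811141-102901665 (Cd44, minus strand), chr2:83724397-83806916 (Itgav), chr2:79255426-79333123 (Itga4), chr8:128685654-128733200 (Itgb1), chr11:104608000-104670476 (Itgb3), chr16:33829665-33949338 (Itgb5), chr9:118606690-118901003 (Itga9), chr15:103344286-103366763 (Itga5, minus strand) and chr12:119158022-119238802 (Itgb8, minus strand). Of the 10 genes, 6 overlapped another annotated gene, among them Itga4 with Cerkl on the opposite strand. The count table gives genes only, so levels of transcript forms, such as the splice forms of Cd44, were not measured. Reads came from the 3′ ends of transcripts, so levels are compared between classes and not between genes.

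The C/EBP consensus TTGCNNAA was searched on both strands in RefSeq promoter windows of GRCm38.p6, from 250 bases before to 50 bases after each start. It was found in 3547 of 32851 windows (10.8%). The first Spp1 window (chr5:104434861-104435160) held 0 matches and the window of a second Spp1 start (chr5:104435942-104436241) held 1, while none was found in the windows of the 8 receptor genes that had an entry. The Itga9 window (chr9:118711442-118711741) lies inside the annotated gene and not at its outermost start. In the paper's reporter assays, the Spp1 site whose mutation relieved repression by C/EBPα lay farther upstream than the 250 bases searched here. This search could not reach that site. A match is a description of the letters and not of binding.

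A filter of 500 UMIs, 200 genes and no more than 25% mitochondrial UMIs left 11617 cells with suffix 1 and 6088 with suffix 2, with medians of 1424 and 2309.5 UMIs. The mitochondrial share separated the libraries, with a median per barcode of 4.07% and 41.34%, and the limit removed 32.81% and 59.41% of barcodes. The libraries shared 81 of 32316 barcode sequences. Cells were placed in 16 classes by gates of marker genes that include no member of the family, and of 49 further markers that the gates did not use, 48 stood at least 2-fold over the median of the other classes in each library. The exception was Cyp3a11 in hepatocytes. Hepatocytes were divided at 5000 UMIs into 748 and 582 deep hepatocytes, with medians of 20328 and 11651 UMIs, and 8824 and 3494 shallow hepatocyte droplets. Droplets passing gates of 2 lineages, 106 and 138, were left out, and no doublet caller was run. Hepatocyte markers did not count as a lineage in this step. A droplet with hepatocyte markers that passed the gate of 1 other lineage thus stayed in that other class. In deep hepatocytes Cebpa itself was at 1.52 CPM (0.972 to 2.26) in the first library, with suffix 1, against 108.8 CPM (101.8 to 116.2) in the other. The sources used here do not say which part of the gene the deletion removes, and no genotype was read from this level.

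Spp1 was highest in cholangiocytes, the epithelial cells of the bile duct, in both libraries. The 30 cholangiocytes with suffix 1 held 5253 Spp1 UMIs, or 14364.1 CPM (13978.2 to 14757.9), and the 19 with suffix 2 held 2541, or 16581.2 CPM (15942.7 to 17238.7). A UMI was found in 29 and 18 of these cells. By single cell, the lowest, median and highest levels were 0, 12749.2 and 29256.3 CPM with suffix 1 and 0, 14234.9 and 26539.6 CPM with suffix 2, so the ranges of the libraries overlapped. The sum over cells was lower with suffix 1, at a ratio of 0.866 (0.826 to 0.909), and at 0.950 (0.900 to 1.00) when the cell with the most Spp1 UMIs was left out of each library. In Leiden clusters, which placed 71 and 27 cells in this class, the order turned, at 12022.3 CPM with suffix 1 against 11019.8 CPM. Of the 4857 genes with at least 20 UMIs in this class over both libraries, 2.24% were 2-fold or more higher with suffix 1, and Spp1 was not among them.

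Deep hepatocytes held the most Spp1 UMIs with suffix 1, and here the libraries stood far apart. With suffix 1 the 18695 Spp1 UMIs came to 1182.3 CPM (1165.4 to 1199.3), against 601 UMIs and 72.85 CPM (67.14 to 78.91) with suffix 2, a ratio of 16.15 (14.96 to 17.63) after 3 UMIs were added to both sums. Of 12158 genes with enough UMIs, 3.59% were 2-fold or more higher with suffix 1, and Spp1 stood at the percentile 99.97 of their ratios. Deep hepatocytes held 60.33% of the 30990 Spp1 UMIs of kept cells with suffix 1 but 16.34% of the 3678 with suffix 2, where cholangiocytes held 69.09% (16.95% with suffix 1). With suffix 2 the level overlapped that of shallow hepatocyte droplets, at 69.21 CPM (62.39 to 76.57). The sum depended on the cells taken. With a mitochondrial limit of 10% it was 4220.4 CPM with suffix 1 against 36.97 CPM, and in Leiden clusters it was 532.3 CPM with suffix 1.

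With suffix 1 most of these UMIs sat in a few cells that also carried biliary markers without passing the biliary gate. There, 61 of 748 deep hepatocytes had a UMI of at least 1 of the 9 biliary gate markers, and these cells held 13426 of the 18695 Spp1 UMIs. Their median level was 1452.1 CPM, below the lower quartile of cholangiocytes with suffix 1 (10162 CPM). Their upper quartile was 13821.2 CPM, above the cholangiocyte median of 12749.2 CPM. With 1 biliary marker the level was 7080.8 CPM (39 cells) and with 2 or more it was 8947.7 CPM (22 cells). In the library with suffix 2, 19 of 582 cells carried such a marker, and they held 194 of the 601 Spp1 UMIs, at 526.7 CPM (1 marker, 15 cells) and 518.1 CPM (2 or more, 4 cells). Whether such cells were doublets, took up free RNA or expressed genes of both cell types was not tested.

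The difference between the libraries remained in hepatocytes free of biliary markers. The 687 such cells with suffix 1 were at 373.6 CPM (363.6 to 383.8), against 51.65 CPM (46.75 to 56.92) in the 563 with suffix 2, a ratio of 7.18 (6.54 to 8.02), where 2.65% of 11757 genes were 2-fold or more higher with suffix 1. With a mitochondrial limit of 10% as well, these levels were 199.1 CPM and 36.04 CPM. The Spp1 signal was spread over many cells with suffix 1, where 552 cells (80.35%, 77.18 to 83.26) had a UMI and the median cell was at 187.4 CPM. With suffix 2, 151 cells (26.82%, 23.20 to 30.68) had a UMI and the median cell was at 0. Levels of 1000 CPM or more were found in 22 and 4 of these cells. The shares with a UMI were not thinned to a common depth, and all deep hepatocytes had median depths of 20328 and 11651 UMIs.

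**Figure D1:**
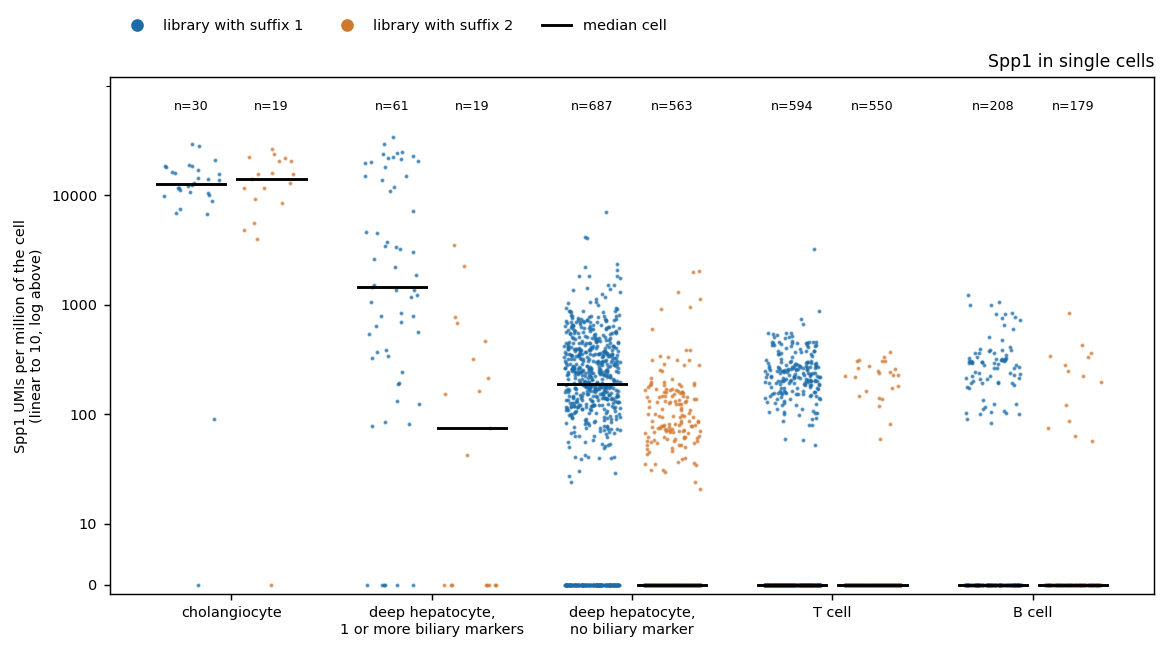
Spp1 level of each cell (CPM of the cell, linear to 10 and log above) in cholangiocytes, deep hepatocytes with and without biliary markers, T cells and B cells, for both libraries, with a bar at the median cell and the number of cells above. The median cholangiocyte sits at 12749.2 with suffix 1 and 14234.9 with suffix 2, while hepatocytes with no biliary marker have a median of 187.4 with suffix 1 and 0 with suffix 2.

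Spp1 UMIs were also found in B cells, the background class for this gene, and in other blood cells. Monocytes overlapped between the libraries, at 43.02 CPM (20.63 to 79.11) and 23.72 CPM (8.70 to 51.62). B, T and erythroid cells were higher with suffix 1, although B and erythroid cells held only 15 and 3 UMIs with suffix 2. B cells were at 111.1 CPM (90.50 to 135) and 20.46 CPM (11.45 to 33.74), T cells at 95.40 CPM (84.92 to 106.8) and 9.14 CPM (5.92 to 13.49), and erythroid cells at 66.97 CPM (49.55 to 88.54) and 11.95 CPM (2.46 to 34.91). Macrophages, which can produce osteopontin when activated, were within the range of these classes, at 82.23 CPM (71.86 to 93.68) and 11.41 CPM (8.15 to 15.54). After thinning to 1000 UMIs, which left out 19 and 18 macrophages and 1 B cell of each library as shallower, a Spp1 UMI remained in 26.47% of deep hepatocytes, 10.63% of B cells, 10.27% of T cells and 10.89% of macrophages with suffix 1. With suffix 2 these shares were 4.64%, 2.81%, 0.909% and 0.615%. Before thinning the share of B cells with a UMI was 39.90% and 7.82%, at median depths of 3640 and 3166 UMIs. The share of macrophages with a Spp1 UMI (42.24% and 7.11%) was thus at the level of a background class and is not read as expression.

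In 5 classes Spp1 had at least 20 UMIs in each library, and in 4 of them (deep hepatocytes, shallow droplets, macrophages and T cells) it was 2-fold or more higher with suffix 1, with cholangiocytes as the exception. A further 8 classes reached 20 UMIs only through suffix 1, which favours high ratios, so theirs are given as values only. Monocytes (10 and 6 UMIs, ratio 1.57), stellate or other mesenchymal cells (12 and 5, 2.51) and basophils or mast cells (4 and 0) did not reach 20 UMIs over both libraries. Besides deep hepatocytes, the ratio was 4.40 in shallow hepatocyte droplets (where 1.81% of genes were 2-fold or more higher with suffix 1), 6.79 in macrophages (2.86%), 9.41 in T cells (1.56%), 4.34 in NK cells (1.99%), 4.66 in B cells (1.75%), 8.23 in endothelial cells (1.79%), 4.62 in plasmacytoid dendritic cells (1.14%) and 2.97 in erythroid cells (8.78%). It was 12.77 in neutrophils (2.83%), 22.48 in conventional dendritic cells (2.45%) and 300.9 in plasma cells (12.2%). Without the cell holding the most Spp1 UMIs in each library, the ratio was 4.46 in shallow droplets, 6.35 in macrophages and 8.56 in T cells. It fell to 5.15 in neutrophils, 12.07 in conventional dendritic cells and 8.10 in plasma cells, the last from 16 and 0 UMIs. In 3 classes a single cell decided the level. The 19 plasma cells with suffix 1 were at 3168.8 CPM, of which 1 cell held 1083 of 1099 UMIs, and at 55.64 CPM without it. Neutrophils went from 493.9 to 156.2 CPM and conventional dendritic cells from 424.7 to 201.1 CPM without 1 cell each.

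Spp1 in hepatocytes with no biliary marker was set beside Alb, the albumin transcript of hepatocytes. With suffix 1 its proportion was near that of several immune classes and endothelial cells, and with suffix 2 less so. Alb was itself found in classes that do not make it, at 12398.5 and 16851.3 CPM in B cells against 35988.8 and 39674.3 CPM in deep hepatocytes. With suffix 1, Spp1 UMIs per 1000 Alb UMIs were 10.32 (10.05 to 10.61) in hepatocytes with no biliary marker, 10.09 in shallow droplets, 8.96 in B cells, 9.60 in T cells, 8.85 in macrophages, 8.82 in erythroid cells and 10.93 in endothelial cells. With suffix 2 the same classes gave 1.31 (1.18 to 1.44), 1.97, 1.21, 0.765, 0.868, 1.64 and 0.866, a wider band. There shallow droplets (1.77 to 2.18) and T cells (0.495 to 1.13) overlapped neither each other nor these hepatocytes. Macrophages (0.620 to 1.18) reached only the lower end of the hepatocyte interval. Monocytes were at 4.65 (2.23 to 8.57) and 2.05 (0.751 to 4.46), below these hepatocytes with suffix 1 and overlapping them with suffix 2. Plasmacytoid dendritic cells were at 7.38 (5.57 to 9.60) and 0.812 (0.326 to 1.67), and NK cells at 13.30 (9.85 to 17.57) and 1.80 (0.659 to 3.92). Far above stood cholangiocytes (1189.8 and 1800.9) and hepatocytes with biliary markers (228.7 and 12.31, the second at 7.20 without 1 cell). With suffix 1, plasma cells were at 464.7, conventional dendritic cells at 56.15 and neutrophils at 25.61, and without 1 cell each at 12.52, 26.46 and 9.20. The proportion in marker-free hepatocytes was 11.42 and 1.29 at 10% mitochondrial UMIs or less and 10.25 and 1.31 above, so it differed between the libraries by a like amount on both sides of that limit. The part of free RNA in the Spp1 level of any class was not tested.

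**Figure D2:**
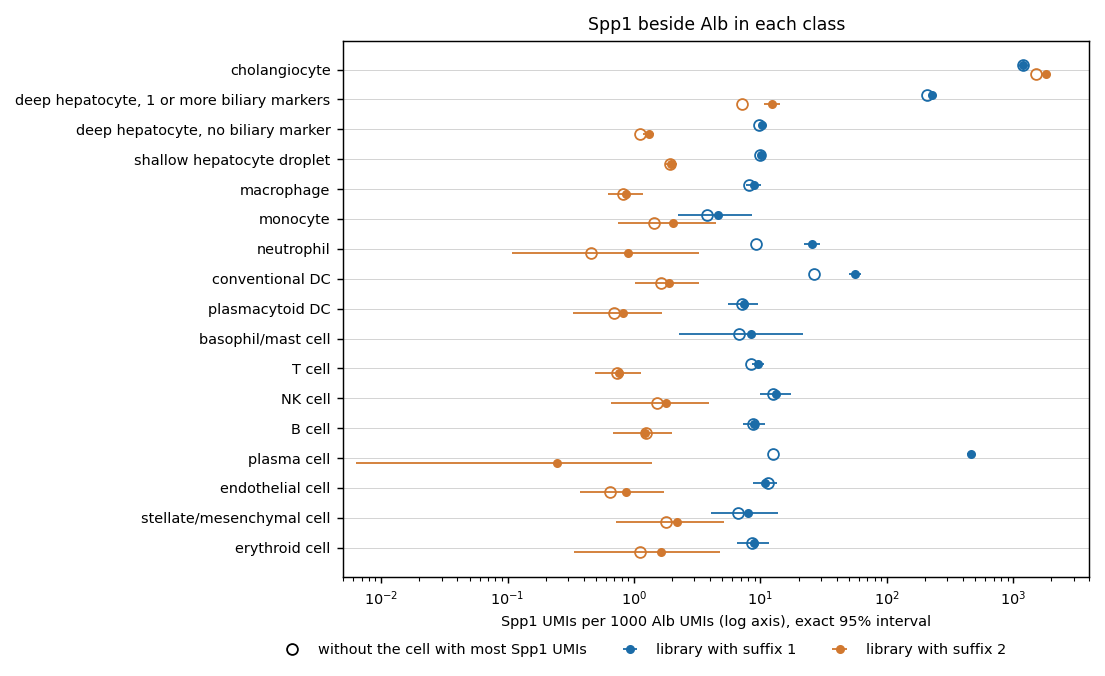
Spp1 UMIs per 1000 Alb UMIs (log axis) by class for both libraries, with exact 95% intervals and open circles for the value without the cell holding the most Spp1 UMIs. Hepatocytes with no biliary marker sit at 10.32 with suffix 1, near several immune classes and endothelial cells. With suffix 2 they sit at 1.31, with an interval above that of T cells and below that of shallow droplets. Cholangiocytes sit at 1189.8 and 1800.9. Points at 0 are not drawn.

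The receptor genes passed 2-fold between the libraries about as often as genes in general. Of 80 pairs of a receptor gene and a class with at least 20 UMIs, 4 passed 2-fold, 2 in each direction, and the median ratio was 0.974. Over all genes, 6351 of 101348 pairs with enough UMIs (6.27%) passed. In hepatocytes 2 of 8 receptor genes passed in the deep cells (8.19% of all genes passed in either direction) and 0 of 8 in the shallow droplets (11.9%), and in cholangiocytes 1 of 6 (8.36%) and endothelial cells 1 of 7 (4.01%) passed. None passed of 7 in macrophages (4.26%), 6 in monocytes (5.45%), 4 in neutrophils (8.24%), 6 in conventional dendritic cells (4.41%), 5 in plasmacytoid dendritic cells (3.27%), 2 in basophils or mast cells (14.9%), 6 in T cells (2.68%), 4 in NK cells (3.66%), 4 in B cells (3.44%), 3 in plasma cells (14.6%) and 4 in stellate or other mesenchymal cells (7.4%), and erythroid cells (12.8%) had none with enough UMIs. Over 13 classes of at least 20 cells in both libraries, Pearson's r between the libraries of log2(CPM + 10) was 1.00 for Cd44, 0.99 for Itga4, 0.98 for Itgav, Itgb5 and Itga9, 0.97 for Itgb1 and Itgb3, 0.78 for Itga5, 0.57 for Spp1 and 0.18 for Itgb8. Cholangiocytes, with 19 cells in the library with suffix 2, are not among these classes, and the points share a library and its free RNA, so r is a description.

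**Figure D3:**
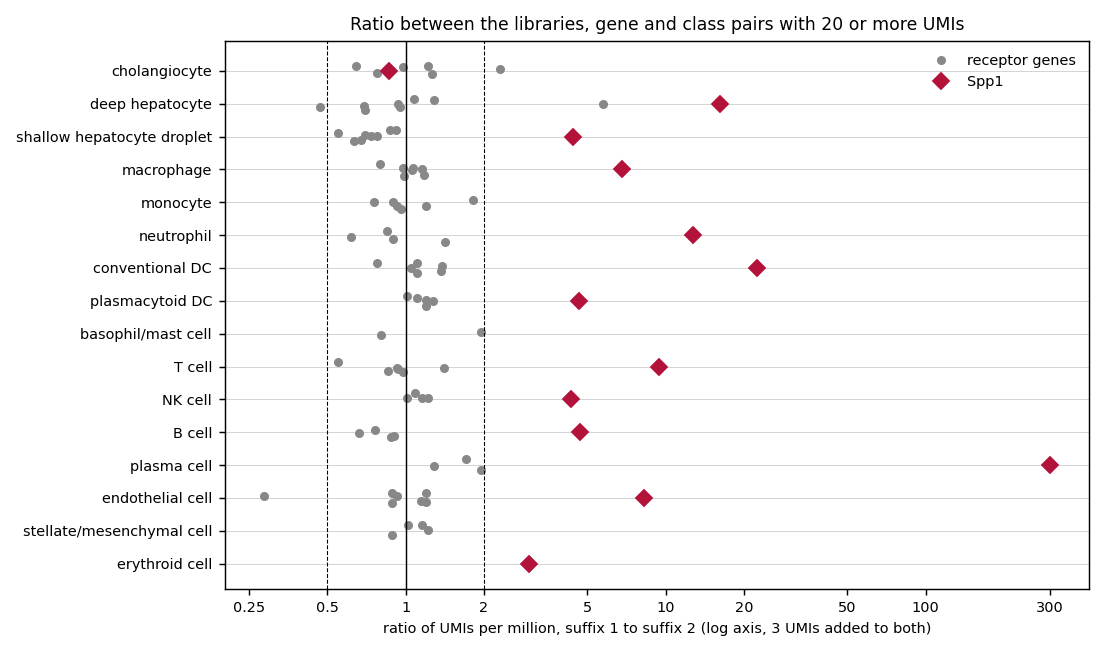
Ratio of the level with suffix 1 to that with suffix 2 (log axis, 3 UMIs added to both sums) in each class for Spp1 (diamonds) and the 9 receptor genes (grey points), for pairs of a gene and a class with at least 20 UMIs. Dashed lines mark 0.5 and 2. Spp1 lies right of 2 in 4 of the 5 classes with at least 20 Spp1 UMIs in each library, the 8 other diamonds reach 20 UMIs only through suffix 1, and receptor genes lie outside the lines in 4 of 80 pairs.

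The 4 receptor pairs past the fold rested on few UMIs. Itgb8 in deep hepatocytes had 52 UMIs with suffix 1 and 2 with suffix 2 (ratio 5.74, 3.57 to 115). All 52 UMIs were in the cells that carried biliary markers, and hepatocytes with no biliary marker had 0 in both libraries. Itga9 in deep hepatocytes was lower with suffix 1, at 39 and 44 UMIs (0.466, 0.293 to 0.728), and came to 0.545 in cells with no biliary marker, where Itga4 reached 0.498 (0.355 to 0.691) and 8.51% of all genes passed the fold. Cd44 in cholangiocytes had 19 and 1 UMIs (2.30, 1.27 to 330.8), with 9 of the 19 in 1 cell. Itga4 in endothelial cells had 5 and 24 UMIs (0.285, 0.0598 to 0.537), found in 2 and 5 cells.

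**Figure D4:**
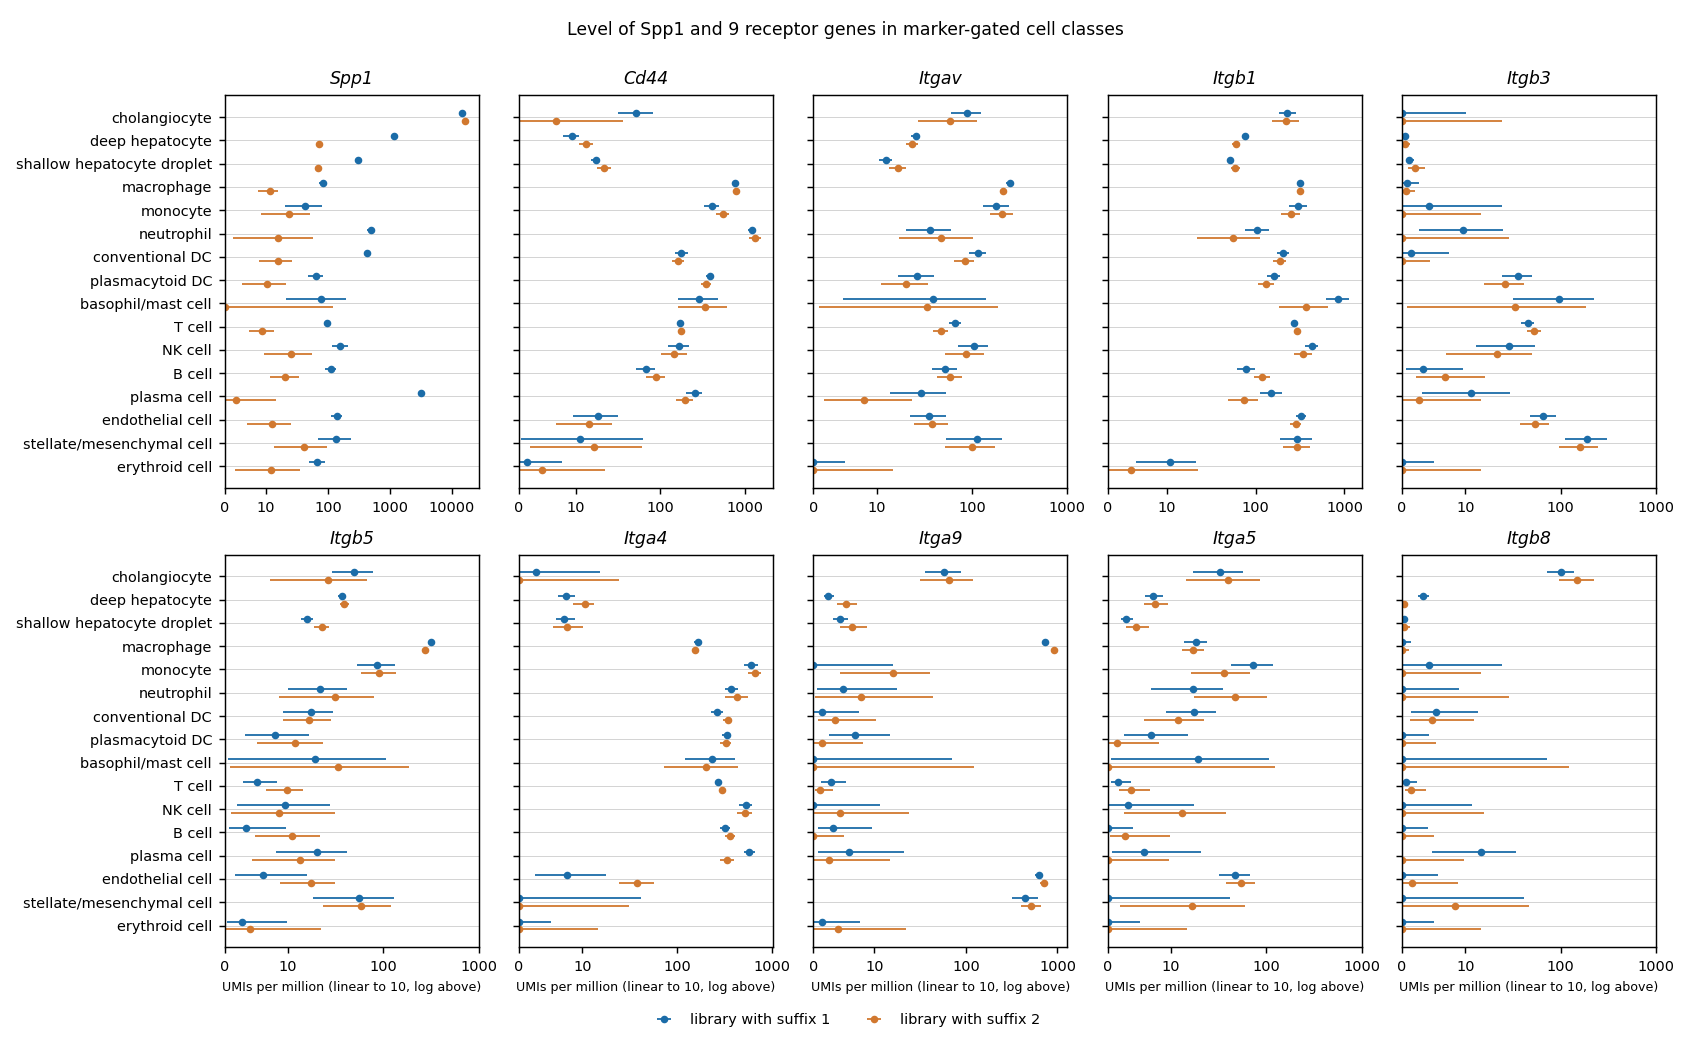
Level of Spp1 and of the 9 receptor genes (CPM, linear to 10 and log above) in 16 cell classes for both libraries, with exact Poisson 95% intervals. Cd44 sits at 1195.9 and 1318.2 in neutrophils and Itgb3 at 190.1 and 158.4 in stellate or other mesenchymal cells.

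Cd44, the hyaluronan receptor of leukocytes, was highest in neutrophils, at 1195.9 CPM (1092.8 to 1306.2) against 1318.2 CPM (1126.4 to 1533.3). Here and for the genes that follow, the library with suffix 1 is given first, and the order of levels is over classes of at least 20 cells in that library. Macrophages followed at 755 CPM (722.9 to 788.2) and 775.8 CPM (746.9 to 805.5), then monocytes at 404.4 and 541.6 CPM and plasmacytoid dendritic cells at 383.7 and 348.8 CPM. The intervals of neutrophils and macrophages stood apart from each other and from the next class in both libraries, whereas monocytes and plasmacytoid dendritic cells overlapped with suffix 1. T cells were at 170.8 and 175.2 CPM. Deep hepatocytes, the background class for this gene, were at 9.30 and 13.21 CPM, and stellate or other mesenchymal cells held 1 and 2 UMIs. A Cd44 UMI was found in 82.61% and 85.97% of macrophages (47.19% and 51.84% of the 303 and 488 that could be thinned to 1000 UMIs) and in 12.70% and 12.54% of deep hepatocytes (2.01% and 1.72%).

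Within macrophages and T cells Cd44 was uneven. Macrophages with a UMI of at least 1 of the Kupffer cell genes Clec4f, Timd4, Vsig4 and Cd5l were at 774.9 CPM (301 cells) and 785.8 CPM (492 cells), and the 21 and 14 macrophages with none were at 292.2 CPM (201.1 to 410.3) and 246 CPM (140.6 to 399.5), with intervals that did not overlap. Macrophages with a UMI of Trem2 or Gpnmb, genes of lipid-associated macrophages, were at 528.4 CPM against 792.9 CPM with suffix 1, but at 762.8 against 777.8 CPM with suffix 2. Cd44, which rises on T cells after activation, was at 81.31 CPM (57.82 to 111.1) and 90.21 CPM (58.38 to 133.2) in naive-like T cells and at 180.4 CPM (156.4 to 207.1) and 172 CPM (147.3 to 199.7) in T cells with Cxcr6 or Ccl5.

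Itgav encodes αv, the shared α chain of the Arg-Gly-Asp receptors of the αv group. It was highest in macrophages, at 247.8 CPM (229.5 to 267.1) and 210.8 CPM (195.9 to 226.5), and in monocytes, at 180.7 CPM (130.2 to 244.2) and 205.6 CPM (153.5 to 269.6), and these neighbours overlapped. Stellate or other mesenchymal cells were at 111.8 and 100.1 CPM, cholangiocytes at 87.50 CPM with suffix 1, and deep hepatocytes at 25.55 and 23.39 CPM. No UMI was found in erythroid cells of either library. Macrophages with Trem2 or Gpnmb had Itgav at 315 CPM (262 to 375.5) and 305.6 CPM (256.9 to 360.8), above the 236.6 CPM (217.3 to 257) and 196.7 CPM (181.2 to 213) of the others.

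The β partners of αv had distinct distributions. Itgb1, the β chain that also pairs with α4, α5 and α9, was the most evenly spread. The 12 and 8 basophils or mast cells, too few to be ranked, were at 848.6 CPM (616.6 to 1139.2) and 366.1 CPM (182.8 to 655.1). NK cells were at 426.2 CPM (357.4 to 504.5) and 342.9 CPM (271.9 to 426.8), endothelial cells at 323.7 and 282.1 CPM, macrophages at 312.6 and 318.6 CPM, stellate or other mesenchymal cells at 290.8 and 291.9 CPM, and deep hepatocytes at 76.46 and 59.52 CPM. From NK cells down to deep hepatocytes no neighbours in the order stood apart with suffix 1.

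Itgb3, the β chain of αvβ3, had a narrower distribution. It was highest in stellate or other mesenchymal cells, the collagen-producing cells of the sinusoid, at 190.1 CPM (110.8 to 304.4) and 158.4 CPM (95.39 to 247.4), from 17 and 19 UMIs. Endothelial cells (65.65 and 53.88 CPM) and T cells (45.00 and 52.66 CPM) followed, with an interval apart from the first class in both libraries and overlapping each other. The basophils or mast cells held 5 and 1 UMIs, or 96.43 and 33.28 CPM. Macrophages were at 0.728 and 0.570 CPM from 2 UMIs each. Cholangiocytes held none, which allows up to 8.20 and 19.58 CPM (3 UMIs).

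Itgb5, the β chain of αvβ5, was highest in macrophages, at 315.5 CPM (294.8 to 337.2) and 275.5 CPM (258.4 to 293.5), apart from monocytes at 86.04 and 90.92 CPM. Deep hepatocytes were at 36.49 and 39.03 CPM and B cells, the background class, at 3.30 and 10.91 CPM. Itgb8, the β chain of αvβ8, which is known for activating latent TGF-β, was highest in cholangiocytes, at 101.2 CPM (71.24 to 139.5) and 150.1 CPM (95.14 to 225.2). The second value is from 19 cells, too few to be ranked. No other class exceeded 14.42 CPM, the value of 5 UMIs in plasma cells with suffix 1. Macrophages held 0 Itgb8 UMIs in both libraries, which allows up to 1.09 and 0.856 CPM (3 UMIs).

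The α chains of the thrombin-exposed site had different high classes, and both were found in macrophages. Itga4, the leukocyte α4 chain, was highest in monocytes at 602.3 CPM (506.6 to 710.7) and 652.2 CPM (556.5 to 759.7), and NK cells were at 527.3 and 518.7 CPM, with overlapping intervals. Macrophages were at 165.2 CPM (150.3 to 181.1) and 155.5 CPM (142.7 to 169.1), below the lymphoid and dendritic classes, and stellate or other mesenchymal cells held none, which allows up to 33.55 and 25.02 CPM. In naive-like T cells Itga4 was at 425.3 CPM (368.9 to 487.8) and 624.2 CPM (534.7 to 724.5), against 272.4 CPM (242.7 to 304.8) and 299.3 CPM (266.4 to 335.1) in T cells with Cxcr6 or Ccl5. This order was opposite to that of Cd44. The macrophages without a Kupffer cell gene were at 292.2 CPM (201.1 to 410.3) and 369 CPM (236.4 to 549), above the 159.8 and 151.4 CPM of the rest, again opposite to Cd44.

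Itga9, the α9 chain, was found in the cells of the sinusoid wall. Macrophages were at 726.3 CPM (694.8 to 758.9) and 911.3 CPM (880 to 943.5), endothelial cells at 625.9 CPM (566.8 to 689.6) and 706.8 CPM (642.7 to 775.5), and stellate or other mesenchymal cells at 447.3 CPM (319.6 to 609.2) and 517 CPM (396.4 to 662.8). Macrophages stood apart from endothelial cells in both libraries, while endothelial and stellate or other mesenchymal cells overlapped. Cholangiocytes were at 57.42 CPM with suffix 1, and monocytes held 0 and 4 UMIs. Macrophages without a Kupffer cell gene did not give the same order in both libraries, at 823.4 CPM against 722.1 CPM with suffix 1 and 215.2 CPM against 924.5 CPM with suffix 2, on 21 and 14 cells.

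Itga5, whose α5 chain makes the fibronectin receptor with β1, was at no more than 73.13 CPM in any class. Monocytes were at 73.13 CPM (42.60 to 117.1) and 35.58 CPM (16.27 to 67.54) and endothelial cells at 47.33 CPM (32.16 to 67.18) and 53.88 CPM (37.31 to 75.29), with overlapping intervals. Macrophages were at 18.19 and 17.11 CPM and deep hepatocytes at 7.21 and 7.39 CPM.

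Droplets with a UMI of both chains of a receptor were counted, beside the same count in B cells or deep hepatocytes. A UMI of both Itga9 and Itgb1 was found in 68.01% (62.61 to 73.08) and 70.16% (65.96 to 74.12) of macrophages, 58.14% and 54.73% of endothelial cells and 21.05% and 25.86% of stellate or other mesenchymal cells. Against this stood 0 of 208 and 0 of 179 B cells, with exact upper limits of 1.76% and 2.04%, and 3.34% and 3.44% of the deeper hepatocytes. Itga4 and Itgb1 were found together in 79.41% and 66.67% of monocytes and in 67.27% and 73.13% of conventional dendritic cells, against 3.61% and 4.12% of deep hepatocytes. Itgav and Itgb5 were found together in 53.42% and 46.84% of macrophages, against 0.962% and 1.68% of B cells and 22.33% and 12.89% of deep hepatocytes, and Itgav and Itgb8 in 23.33% (9.93 to 42.28) and 10.53% (1.30 to 33.14) of cholangiocytes, against 0 B cells. Itgav and Itgb3 together reached no more than 6.90% of any class, the value of stellate or other mesenchymal cells with suffix 2. These shares grow with the depth of a cell, which ranged from a median of 1155 UMIs in shallow hepatocyte droplets to 20328 in deep hepatocytes. Free RNA and mixed droplets can add to them, and their part was not tested.

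**Figure D5:**
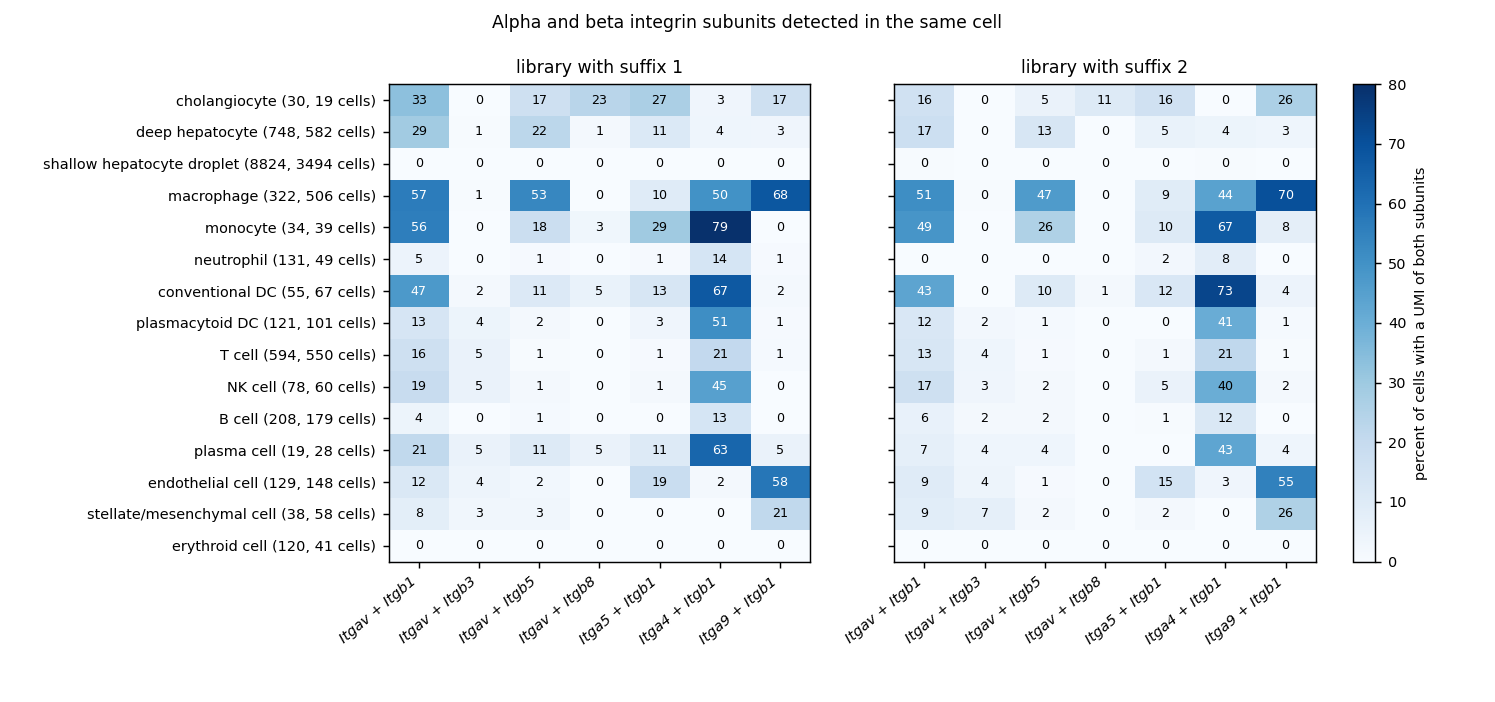
Percent of cells with a UMI of both the α and the β subunit of 7 integrins in 15 classes, for the library with suffix 1 (left) and suffix 2 (right), with the numbers of cells beside the class names. Itga9 with Itgb1 is at 68.01% and 70.16% in macrophages and Itga4 with Itgb1 at 79.41% and 66.67% in monocytes.

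Other genes of the same system were read from lists of relatives, again beside the 6.27% of all pairs of a gene and a class that passed 2-fold in either direction. Of 18 other integrin subunits, 81 pairs had enough UMIs, of which 3 were higher and 4 lower with suffix 1 (median ratio 1.05). For 12 other ligands of these receptors the counts were 3 and 3 of 63 pairs (median 0.959), for 9 enzymes that modify osteopontin 2 and 4 of 48 (median 0.811), for 10 integrin adaptors and kinases 2 and 2 of 98 (median 1.04), and for 9 fibrogenic genes 1 and 1 of 11 (median 0.853). Among the ligands, Vtn, which encodes vitronectin, was at 1321 and 1400 CPM in deep hepatocytes, and Fn1, which encodes fibronectin, at 627.7 and 594.9 CPM. Mfge8, the bridging ligand of αvβ3 and αvβ5, was at 30.29 CPM (27.64 to 33.13) and 7.52 CPM (5.76 to 9.63) in deep hepatocytes, and in those with no biliary marker, a set chosen after seeing the data, at 17.73 CPM (15.60 to 20.07) and 6.22 CPM (4.60 to 8.22). Cholangiocytes held Mfge8 at 199.6 CPM (156.5 to 251) and 234.9 CPM (164.5 to 325.2), with overlapping intervals.

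Enzymes that cut or cross-link osteopontin were found in several classes. In deep hepatocytes F2, the prothrombin gene, was at 563 and 723.5 CPM and Plg, the plasminogen gene, at 866.6 and 841.5 CPM. Mmp9, a gelatinase of neutrophil granules, was at 612.5 and 698.4 CPM in neutrophils. Tgm2, the tissue transglutaminase, was at 209.6 and 241.9 CPM in macrophages. Among the other integrins, Itga1, an α chain of collagen receptors, was at 673.3 and 681.4 CPM in endothelial cells and at 693.4 and 817.2 CPM in stellate or other mesenchymal cells, and Itgal, the α chain of LFA-1, was at 353.7 and 296.1 CPM in macrophages. Tln1, which encodes the talin that links β chains to actin, was at 355.1 and 310.9 CPM in macrophages and at 33.71 and 33.21 CPM in deep hepatocytes. Col3a1, a fibrillar collagen gene, was at 257.2 CPM (163.1 to 386) and 375.2 CPM (273.7 to 502.1) in stellate or other mesenchymal cells.

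The genes closest in pattern to each member, by Pearson's r of log2(CPM + 10) over the 13 classes of both libraries (26 points, 5020 genes at 100 CPM or more in at least 1 point), are given as a description. They were Cyp7b1 (0.934), Tff3 (0.899) and Spink1 (0.886) for Spp1, where the choice of classes mattered. With classes of at least 15 cells in both libraries, which brings in cholangiocytes and plasma cells, they were Grip1 (0.888), Cystm1 (0.881) and Onecut1 (0.875). For the receptors the closest gene over the 13 classes was Abr for Cd44 (0.950), Fam49a for Itgav (0.915), Tnpo3 for Itgb1 (0.934), Farp1 for Itgb3 (0.885), Lrp1 for Itgb5 (0.971), Ptprc for Itga4 (0.986) and Mertk for Itga9 (0.974). With cholangiocytes and plasma cells brought in, it changed to Itgal for Cd44 (0.922), Tent5a for Itgav (0.876), Adgrl1 for Itgb3 (0.887) and Cytip for Itga4 (0.975). It stayed the same for Itgb1, Itgb5 and Itga9. Itga5 and Itgb8 did not reach 100 CPM in any of the 13 classes, and their closest genes there, Bach1 (0.857) and Plce1 (0.707), rest on few UMIs. With cholangiocytes and plasma cells Itgb8 reached 100 CPM, and its closest gene was Gm609 (0.973). For Itga5 it was then Ctdsp2 (0.863).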

How the data were processed

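Single-cell libraries (10x Genomics 3′ v3.1) of 2 perfused and digested livers were deposited as 1 matrix of raw UMI counts, for which the authors ran Cell Ranger 7.1.0. The submitters' processing notes also name STAR 2.7.2a, bcl2fastq 2.20.0 and mm10. The sources used here do not say whether intronic reads were counted. Cells with at least 500 UMIs, 200 genes and at most 25% mitochondrial UMIs (13 genes) entered the gates. A gate needed 3 markers and 1000 CPM, and hepatocytes needed 5 of 10 markers and no other gate. Library totals were 60048646 and 52355243 UMIs. Sums per class were compared without a test, 2-fold with 3 UMIs added and 20 UMIs over both libraries marking a difference. Ratio intervals are exact and use the UMIs as counted. Named genes were the members, up to 4 of a list per class with the highest levels, and the 3 closest in pattern. Thinning used 1000 UMIs. Members and lists were chosen with earlier results of these data known. Scripts (Python 3.11.15, scipy 1.17.1, scanpy 1.11.5) were tested on simulated data. Other filters, gates, clusters and means were tried.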

Additional observations from a re-analysis of the deposited data

Results flagged for a closer look

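Values of Spp1 and Cd44 above the limit of a count of 0 were also found in droplets that no class used. The first of each pair of values is from the library with suffix 1. The 5675 and 8886 droplets over the mitochondrial limit held Spp1 at 217.1 CPM (210.4 to 223.9) against 29.48 CPM (27.45 to 31.63), and Cd44 at 26.05 CPM (23.78 to 28.48) and 24.00 CPM (22.16 to 25.94). The 106 and 138 droplets passing gates of 2 lineages held Spp1 at 456.1 CPM (420 to 494.5) against 19.93 CPM (13.35 to 28.63), and Cd44 at 435.2 CPM (400 to 472.7) and 472.9 CPM (438.2 to 509.6).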

How the results depend on the processing

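Of 112 values under an alternative, 78 stayed inside the counting interval of the value given and 34 did not, of which 7 moved by over 1.5 times. Cd44 in T cells and Itgb1 in endothelial cells stayed inside it under each alternative run for them, as did each result with at least 1000 UMIs per cell or with mixed-lineage droplets kept. Spp1 in deep hepatocytes with suffix 1 was at 1095.4 CPM with a mitochondrial limit of 50%, 4220.4 with 10%, 1147.2 with a gate of 2 markers, 1202.2 with 4, 1309.6 with gate markers at 2000 CPM, 532.3 in Leiden clusters, 842.6 as the mean of single cells and 1071.2 after subtraction of the B cell level. With suffix 2 it was at 36.97 with the limit of 10%, 85.51 with a gate of 4 markers, 59.61 as a mean over cells and 52.39 after subtraction. Alternatives chosen after seeing the data gave, with no biliary marker, 373.6 and 51.65, with the limit of 10% as well, 199.1 and 36.04, and without the cell holding the most UMIs, 1092.8 and 62.37. Spp1 was higher with suffix 1 under each of these. Spp1 in cholangiocytes with suffix 1 was at 13911.7 with a gate of 4 markers, 13250 with gate markers at 2000 CPM, 12022.3 in Leiden clusters, 13498.5 as a mean over cells and 13976.7 without 1 cell, and with suffix 2 at 17328.8 with the limit of 10%, 11019.8 in Leiden clusters, 14026.1 as a mean over cells and 14700.7 without 1 cell, so the order of the libraries turned in Leiden clusters. Cd44 in macrophages with suffix 1 was at 704.4 with the limit of 50%, 792.5 with 10%, 711.7 with a gate of 2 markers and 695.4 as a mean over cells, and with suffix 2 at 855.5 with 10%, 739.9 with a gate of 2 markers and 828.5 in Leiden clusters. The cause was not tested.

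No background subtraction was run for Itgb1, since no class is known to lack it. No paired analysis was possible because no label ties a library to a sample and no test was run. Classes of few cells limit the precision, such as 19 cholangiocytes with suffix 2.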
